A study of Mus musculus with 9 samples.

Results

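The 8 genes described here mark the melanocyte lineage: the receptors Kit and Ednrb, the transcription factor Mitf, the pigment enzymes Tyr, Tyrp1 and Dct, and the melanosome proteins Mlana and Slc45a2. They were chosen by name, through probe sets whose platform annotation gives exactly 1 gene symbol, and make up 8 of the 18193 genes that the arrays name in this way. RNA of whole cochlea was compared between 15-month-old calorie-restricted mice (CR), 15-month-old control mice (MC) and 4-month-old control mice (YC). CR mice ate 62 kcal per week, 26% less than controls, starting when they were 2 months old, whereas MC and YC mice ate 84 kcal per week. All mice were singly housed males of the pigmented strain C57BL/6. Each array carried RNA pooled from 4 cochleae of 2 mice, with 3 such pools per group, so that the p-values measure the spread between pools.

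Melanocytes descend from the neural crest and need KIT and endothelin receptor signalling to migrate and survive, and MITF to switch on their pigment genes. In the cochlea they form the intermediate cell layer of the stria vascularis, the tissue that secretes endolymph, and their potassium channel KCNJ10 is needed for the endocochlear potential. Mice that lack these cells through mutation of Kit, Mitf or Ednrb are deaf, whereas loss of pigment alone through mutation of Tyr leaves the layer in place. Each value below averages every cell type of the dissected tissue, and in such bulk samples fewer cells of a type and less RNA per cell cannot be told apart.

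The arrays differed in a way that touches every value given here. By median deposited signal, 4 arrays formed a low class (526.8 to 626.6) and 5 a high class (842.4 to 1103.9). The low class held all 3 CR arrays and YC array 1, and the high class held all 3 MC arrays and YC arrays 2 and 3, so CR and MC share no class. In a fit with array class as a term, the class effect therefore rests only on YC array 1 against YC arrays 2 and 3. Values were quantile normalized on the log2(signal + 16) scale. A log2 change below is a difference of group means on that scale, with its standard error (SE) and adjusted p from a limma fit of all 9 arrays. Over the 27022 probe sets tested, its median was 0.08 for CR against MC, 0.02 for MC against YC and 0.08 for CR against YC.

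No member passed the threshold in any comparison. Dct had the smallest p among the members for CR against MC and for CR against YC, with a signal in CR above that of every control array, and it kept that direction when array class was a term in the fit, as did the brightest probe set of Ednrb for CR against MC. Tyr, Ednrb and Slc45a2 had probe sets whose deposited signal ran with array class, low in the CR arrays and in the low-class YC array alike. After normalization only the second Tyr and the third Ednrb probe set still separated the classes. Mitf, Kit and Mlana had higher means in CR than in MC by their brightest probe sets, and these differences took the opposite sign with array class as a term.

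The 8 genes were represented by 17 probe sets, of which 12, from 7 genes, reached the signal filter, the 40th percentile of mean log2 signal. All 3 probe sets of Tyrp1 stayed under it. The threshold was a Benjamini-Hochberg adjusted p under 0.05 over all probe sets in limma. For CR against MC, 0 of 12 passed, where 0.0925% of all probe sets did, and 2 of 12 had an unadjusted p under 0.05, where 18.5% of all did. For MC against YC, 0 of 12 passed, where 0% of all did, and 0 had an unadjusted p under 0.05, where 3.39% of all did. For CR against YC, 0 of 12 passed, where 0% of all did, and 2 had an unadjusted p under 0.05, where 10.8% of all did. Without the filter none of the 17 passed in limma, where 0.0622% of 45037 probe sets did for CR against MC and 0% for each of the others, and 2, 0 and 2 of the 17 had an unadjusted p under 0.05 in the same order.

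**Figure D1:**
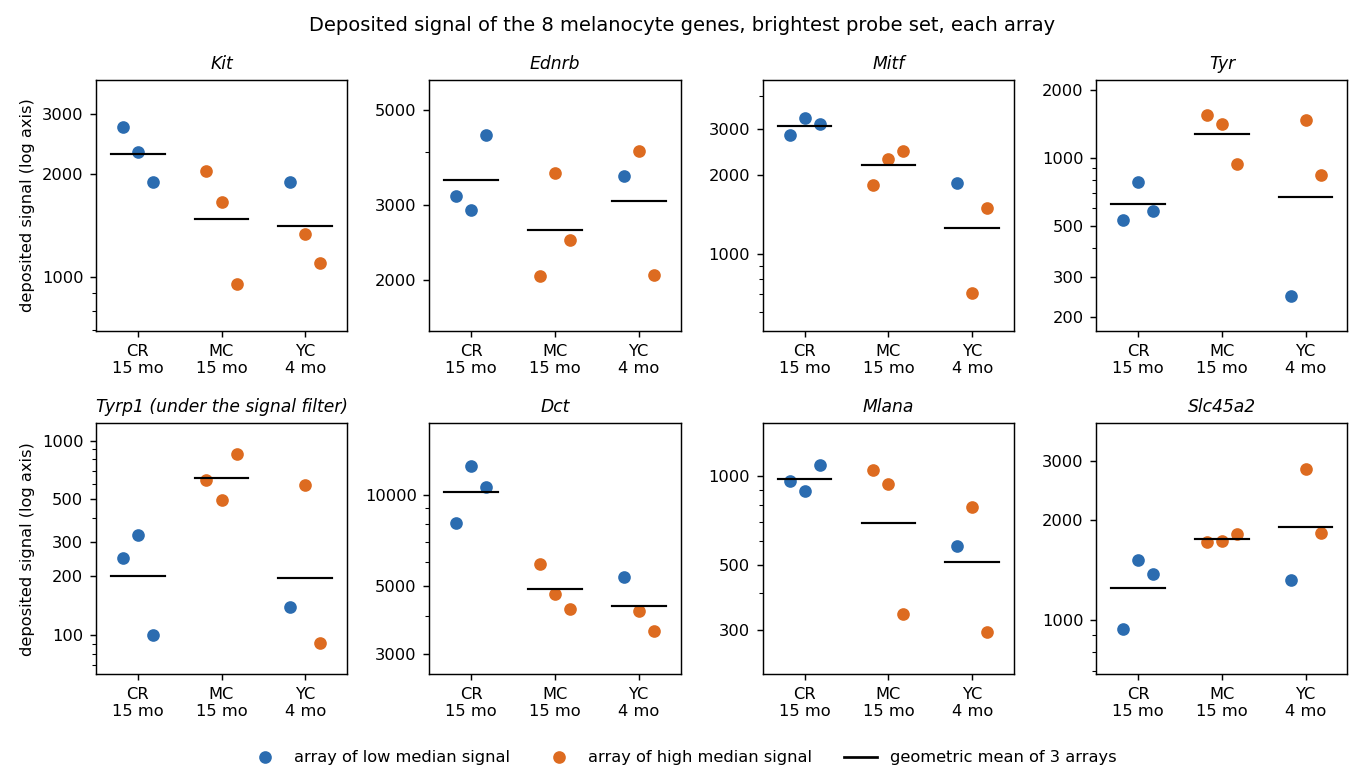
Deposited signal of each member's brightest probe set (vertical log axes, arbitrary units) in the 3 CR, 3 MC and 3 YC arrays, with points coloured by array class and a line at the geometric mean of each group. The 3 CR arrays of Dct lie between 8046 and 12423, above all MC and YC arrays, whereas those of Tyr lie between 534 and 781, below all MC arrays.

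Kit encodes the receptor for stem cell factor, which melanocytes share with mast cells, blood progenitors and some cerebellar interneurons. Its brighter probe set had signals of 2751, 2321 and 1895 in CR cochleae, 2047, 1655 and 955 in MC cochleae, and 1900, 1337 and 1100 in YC cochleae. CR array 3 lay within the range of both control groups, and the other CR arrays lay above them. The log2 change was 0.78 ± 0.43 for CR against MC (adjusted p = 0.346), 0.09 ± 0.43 for MC against YC (adjusted p = 1) and 0.87 ± 0.43 for CR against YC (adjusted p = 0.465). With array class as a term the change for CR against MC was -0.24 ± 0.69, and against the low-class YC array, whose signal was the highest of the YC group, the CR arrays differed by 0.19 ± 0.23. The other Kit probe set was under the filter, with signals from 38.1 to 1042.6 and no separation of the groups.

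Ednrb encodes the endothelin B receptor, which receives endothelin 3 in melanoblasts and is also made by glia and endothelium. Its brightest probe set had signals of 3156, 2924 and 4370 in CR cochleae, 2051, 3560 and 2479 in MC cochleae, and 3506, 4025 and 2053 in YC cochleae. The groups overlapped in every pairing. The log2 change was 0.31 ± 0.35 for CR against MC (95% interval -0.47 to 1.09, adjusted p = 0.635), -0.29 ± 0.35 for MC against YC (adjusted p = 1) and 0.02 ± 0.35 for CR against YC (adjusted p = 0.979).

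The other Ednrb probe sets differed from the brightest in direction. The second had signals of 694, 793 and 1093 in CR cochleae, 2443, 1532 and 1235 in MC cochleae, and 465, 2852 and 1715 in YC cochleae. The third had signals of 366, 527 and 687 in CR cochleae, 1490, 1240 and 1948 in MC cochleae, and 318, 2778 and 1280 in YC cochleae. In both, every low-class array had a lower deposited signal than every high-class array, YC array 1 included. Their log2 changes for CR against MC were -0.59 ± 0.52 (adjusted p = 0.538) and -1.08 ± 0.56 (adjusted p = 0.316). With array class as a term the changes of all 3 Ednrb probe sets were positive, at 0.26 ± 0.65, 1.10 ± 0.71 and 0.82 ± 0.72.

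Mitf encodes the basic helix-loop-helix factor that specifies melanocytes and is also used by osteoclasts and mast cells. Its brighter probe set had signals of 2840, 3291 and 3124 in CR cochleae, 1832, 2307 and 2479 in MC cochleae, and 1863, 711 and 1494 in YC cochleae. The CR arrays lay above all control arrays, and YC array 2 was the lowest of the 9. The log2 change was 0.45 ± 0.46 for CR against MC (adjusted p = 0.593), 0.95 ± 0.46 for MC against YC (adjusted p = 1) and 1.41 ± 0.46 for CR against YC (adjusted p = 0.457). Without YC array 2 the change was 0.35 for MC against YC and 0.80 for CR against YC, so that this array set much of both values.

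With array class as a term the Mitf change was -0.79 ± 0.70 for CR against MC, 1.37 ± 0.44 for MC against YC and 0.58 ± 0.55 for CR against YC. The class effect came from the normalized log2 values of the YC arrays, 10.97 in array 1 against 8.93 and 10.52 in arrays 2 and 3. These changes are thus not separate from the low value of YC array 2. The dimmer Mitf probe set overlapped between all groups, with log2 changes of -0.25 ± 0.79 for CR against MC, 0.49 ± 0.79 for MC against YC and 0.23 ± 0.79 for CR against YC.

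Tyr, tyrosinase, catalyses the first steps of melanin synthesis and is the enzyme whose loss causes albinism. The brightest of its 3 probe sets had signals of 534, 781 and 586 in CR cochleae, 1554, 1418 and 938 in MC cochleae, and 246, 1471 and 838 in YC cochleae. The CR arrays lay below the MC arrays, and the lowest YC value belonged to the low-class array. After normalization the CR and MC values overlapped, with a log2 change of -0.48 ± 0.47 for CR against MC (adjusted p = 0.581), 0.70 ± 0.47 for MC against YC (adjusted p = 1) and 0.22 ± 0.47 for CR against YC (adjusted p = 0.841). With array class as a term the change for CR against MC was 0.74 ± 0.72.

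The second Tyr probe set had signals of 246, 190 and 478 in CR cochleae, 1458, 1247 and 1944 in MC cochleae, and 219, 2910 and 987 in YC cochleae. Every low-class array stood below every high-class array, within the YC group too. The log2 change for CR against MC was -1.88 ± 0.69 (limma adjusted p = 0.212). Once array class was a term it was 0.35 ± 0.96, of opposite sign. In a fit of the CR and MC arrays alone, this probe set passed the threshold (limma adjusted p = 0.0402). That fit leaves out the spread of the YC arrays, and it called 1846 of 27022 probe sets. Fits of all 9 arrays did not call this probe set, whether the filter was dropped (limma adjusted p = 0.225) or class was included. The dimmest Tyr probe set was under the filter, with signals from 39.3 to 551.4 over the 9 arrays and no separation of the groups.

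Tyrp1 encodes a melanosomal enzyme related to tyrosinase that stabilizes it. Its brightest probe set had signals of 249, 326 and 99.7 in CR cochleae, 629, 495 and 848 in MC cochleae, and 139, 589 and 91.0 in YC cochleae. The CR values lay below the MC values, and the YC values spread across both. In the limma fit without the signal filter the log2 change was -0.90 ± 0.76 for CR against MC (adjusted p = 0.561) and 1.36 ± 0.76 for MC against YC (adjusted p = 0.995). The other Tyrp1 probe sets gave -0.63 ± 1.07 and 0.04 ± 0.99 for CR against MC, so the 3 probe sets did not share a direction. With array class as a further term all 3 were negative for CR against MC, at -1.15 ± 1.38, -2.34 ± 1.90 and -1.89 ± 1.72.

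Dct, dopachrome tautomerase, converts dopachrome to a carboxylated indole in eumelanin synthesis and is a common marker of melanoblasts and strial intermediate cells. Its only probe set had signals of 8046, 12423 and 10569 in CR cochleae, 5896, 4711 and 4197 in MC cochleae, and 5370, 4136 and 3547 in YC cochleae. All CR values lay above all control values, and the MC and YC values overlapped. After normalization Dct averaged 13.10 ± 0.34 in CR, 12.37 ± 0.26 in MC and 12.12 ± 0.26 in YC (log2, SD, n = 3 each). The log2 change for CR against MC was 0.72 ± 0.25, a 1.65-fold higher signal, with a 95% interval from 0.18 to 1.27 and a limma adjusted p of 0.196. For CR against YC it was 0.98 ± 0.25 (adjusted p = 0.416), and for MC against YC it was 0.25 ± 0.25 (adjusted p = 1). None of the 3 differences passed the threshold.

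The direction of the Dct difference did not turn with array class, although its error grew. With class as a term the log2 change was 0.59 ± 0.45 for CR against MC and 0.89 ± 0.35 for CR against YC, each with a limma adjusted p of 1. In that fit the change for CR against YC is the difference of the CR arrays from YC array 1 alone. A fit within the low class gave the same 0.89, with an SE of 0.25 where the lone array is assumed to vary like the CR arrays. It is therefore no separate check, and the change of 0.59 also rests on YC array 1 as the only low-class control. Within the high class, the MC arrays and the 2 YC arrays differed by 0.30 ± 0.33 (limma adjusted p = 0.999), again the change of the fit with class. The log2 change for CR against MC stayed between 0.58 and 0.91 when any 1 array was left out. With arrays centred on their median it was 1.68, where all probe sets had a median of 0.58.

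The upstream sequences of the pigment enzyme genes are shown because they carry the same short element. The signs of the log2 changes for CR against MC differed between Tyr (-0.48) and Dct (0.72). With array class as a term both were positive (0.74 ± 0.72 and 0.59 ± 0.45). The dim Tyrp1 probe sets gave no single direction without that term, and with it all 3 were negative, with SEs of 1.38 to 1.90. The element is the M-box, an extended E-box that MITF is known to bind in melanocytes. The 250 bases before the transcript start are given from RefSeq, build GRCm38.p6, each read 5′ to 3′ on the gene's strand. Capitals mark the longest run of letters that all 3 windows share, which spans 10 bases and contains the core TCATGTG.
Tyr, chr7:87493513-87493762, minus strand: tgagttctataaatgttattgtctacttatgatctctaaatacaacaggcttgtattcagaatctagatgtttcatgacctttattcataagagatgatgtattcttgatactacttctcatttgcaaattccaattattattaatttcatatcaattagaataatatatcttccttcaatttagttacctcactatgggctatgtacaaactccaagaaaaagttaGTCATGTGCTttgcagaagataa
Tyrp1, chr4:80833963-80834212, plus strand: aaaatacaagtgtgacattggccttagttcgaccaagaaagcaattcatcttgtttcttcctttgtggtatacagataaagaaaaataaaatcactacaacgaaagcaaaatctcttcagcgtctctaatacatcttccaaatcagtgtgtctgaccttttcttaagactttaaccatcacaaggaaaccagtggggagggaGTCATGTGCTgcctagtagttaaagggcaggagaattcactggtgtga
Dct, chr14:118052247-118052496, minus strand: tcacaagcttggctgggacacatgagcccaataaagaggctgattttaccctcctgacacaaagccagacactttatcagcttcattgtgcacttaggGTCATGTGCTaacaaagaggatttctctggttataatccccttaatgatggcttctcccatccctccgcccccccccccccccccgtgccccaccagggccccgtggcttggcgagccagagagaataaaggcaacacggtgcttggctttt

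The shared run began 23 bases before the transcript start in Tyr, 48 in Tyrp1 and 152 in Dct. The Dct window held the core a second time on the opposite strand, where the printed strand reads CACATGA. The core was searched on both strands in the windows of the 6 members matched in RefSeq, 9 windows in all, and was found in 3 of them, those of the pigment enzymes. Among 32851 windows of the same length, 3.25% held the core and 0.155% held the 10-base run. The core contains the E-box CATGTG, which 12.3% of windows held. A match describes letters only, and the windows of Mitf, Kit and Ednrb did not contain these letters.

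Mlana encodes a small membrane protein that, in human melanocytes, the fibril protein PMEL needs for its maturation. Its only probe set had signals of 963, 887 and 1092 in CR cochleae, 1048, 944 and 340 in MC cochleae, and 578, 785 and 294 in YC cochleae. The deposited CR and MC values overlapped, and MC array 3 and YC array 3 were the low ones. After normalization the CR values lay above all others, with a log2 change of 0.95 ± 0.58 for CR against MC (adjusted p = 0.382), 0.28 ± 0.58 for MC against YC (adjusted p = 1) and 1.23 ± 0.58 for CR against YC (adjusted p = 0.462). Without MC array 3 the change for CR against MC was 0.41. Once array class was a term it was -0.17 ± 0.97.

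Slc45a2 encodes a transporter of the melanosome membrane whose loss dilutes coat colour. Its brighter probe set had signals of 941, 1514 and 1371 in CR cochleae, 1710, 1726 and 1814 in MC cochleae, and 1319, 2845 and 1825 in YC cochleae. The MC arrays lay close together, and each low-class array was below each high-class array in deposited signal, though not after normalization. The log2 change was -0.23 ± 0.32 for CR against MC (95% interval -0.94 to 0.47, adjusted p = 0.697), -0.27 ± 0.32 for MC against YC (adjusted p = 1) and -0.51 ± 0.32 for CR against YC (adjusted p = 0.506). With array class as a term the change for CR against MC was 0.36 ± 0.52. The second probe set, whose groups overlapped, gave 0.01 ± 0.49 for CR against MC, 0.22 ± 0.49 for MC against YC and 0.24 ± 0.49 for CR against YC.

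**Figure D2:**
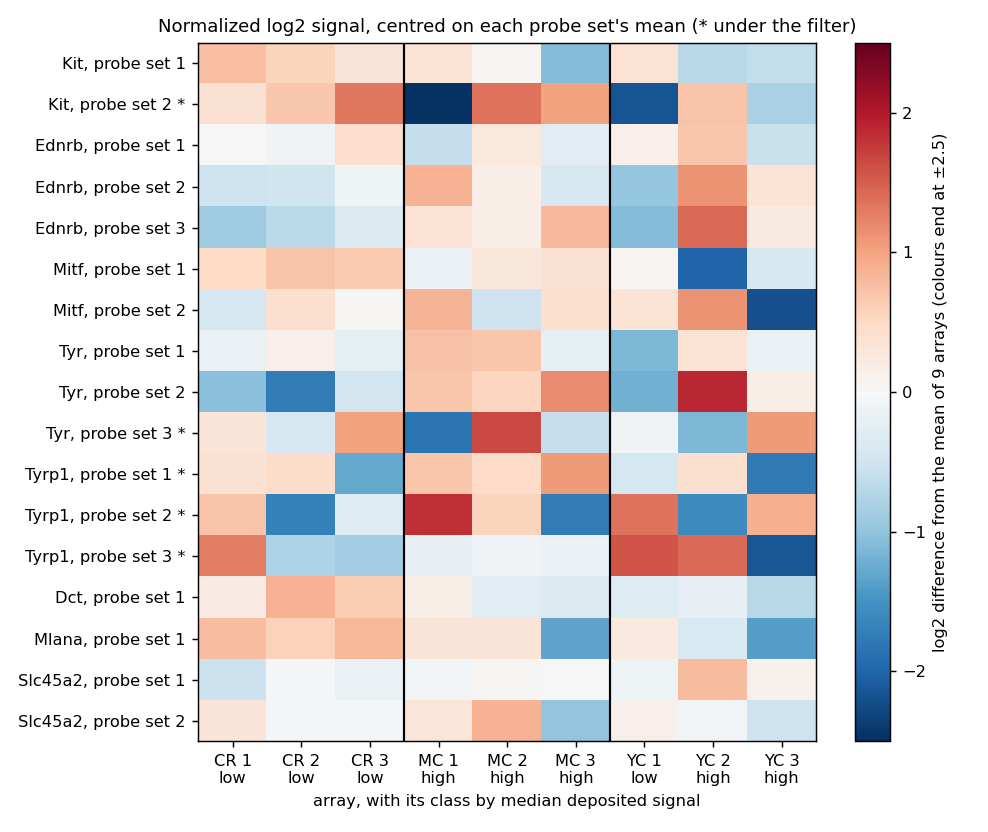
Normalized log2 signal of all 17 probe sets in each array (columns, grouped as CR, MC and YC and marked with their class), as the difference from that probe set's mean over 9 arrays. Dct is above its mean in all 3 CR arrays, the second Tyr probe set is below its mean in all 4 low-class arrays, and probe sets of 1 gene often differ in pattern.

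Across the members, the sign of the difference depended on the gene. By their brightest probe sets and without the filter, 5 of 8 genes were higher in CR than in MC, with changes from -0.90 to 0.95 and a median of 0.38, where the median over all probe sets was 0.02. For MC against YC 6 of 8 were higher (median 0.27, all probe sets 0.02), and for CR against YC 7 of 8 were higher (median 0.66, all probe sets 0.02). The comparisons share arrays, so these counts are not separate observations.

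Separation of the groups was also near its level among all probe sets. In normalized log2 values, CR and MC did not overlap for 5 of the 12 probe sets past the filter, where 37.8% of all did not, with 3 higher in CR (19.5% of all) and 2 lower in CR (18.2% of all). For MC against YC 0 of 12 were free of overlap, where 5.88% of all were, 2.97% with MC higher and 2.92% with MC lower. For CR against YC 3 of 12 were free of overlap, where 20.5% of all were, and all 3 were higher in CR (11.4% of all, against 9.1% lower in CR).

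Array class separated more of the member probe sets in deposited signal than after normalization. In deposited signal, 5 of the 12 were lower in every low-class array than in any high-class array and 0 were higher, where 18.7% of all probe sets were higher in the high class and 10.8% in the low class. In normalized values 2 of the 12 were still lower in the low class and 0 higher, where 10.8% and 11.2% of all probe sets were. The 5 were 2 probe sets of Tyr, 2 of Ednrb and 1 of Slc45a2.

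**Figure D3:**
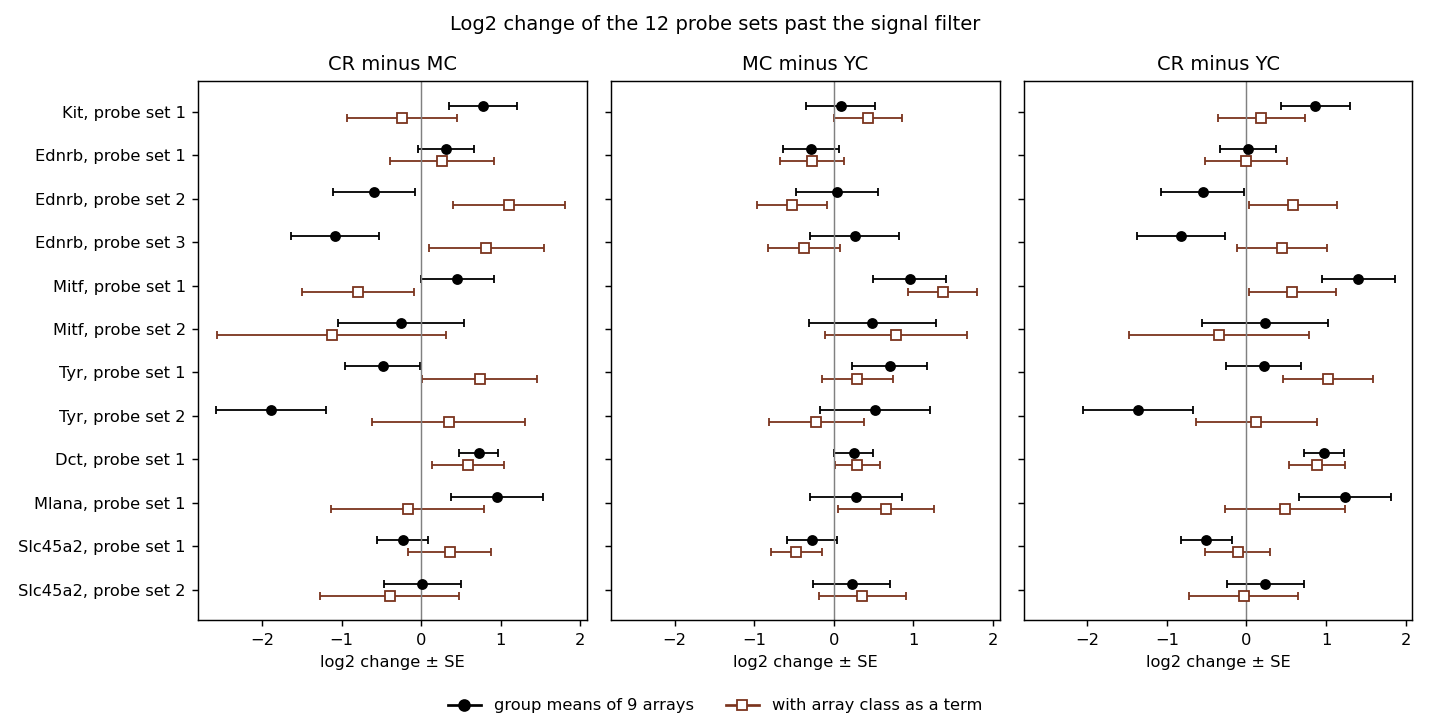
Log2 change with its SE for the 12 probe sets past the filter, for CR minus MC, MC minus YC and CR minus YC, from group means (filled circles) and with array class as a term (open squares). For CR minus MC, Dct (0.72 and 0.59) and Ednrb (0.31 and 0.26) keep their sign by their brightest probe sets, whereas Tyr, Kit, Mitf, Mlana and Slc45a2 turn round.

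The rest of the pathway was read from lists of named genes, each by its brightest probe set, and no gene of the 5 pathway lists passed the threshold in any comparison. Among ligands, hormones and the melanocortin receptor, 3 of 6 genes were past the filter and 2 of these were higher in CR than in MC (median 0.31), against 1 of 3 with array class as a term (median -0.21). Kitl, which encodes the KIT ligand, was at 0.31 ± 0.24 for CR against MC (adjusted p = 0.483), and at -0.21 with that term. Edn1, endothelin 1, was at -0.61 ± 0.56 for CR against MC (adjusted p = 0.552) and at 1.36 ± 0.56 for MC against YC (adjusted p = 1), without overlap of the groups in either. Edn3, the ligand that melanoblasts use, was under the filter.

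Of 9 transcription factors of the lineage, 8 were past the filter, 3 higher and 5 lower in CR than in MC (median -0.33, and 0.03 with array class as a term). Lef1, a mediator of Wnt signalling, was at 0.96 ± 0.46 for CR against MC (adjusted p = 0.289) and at -0.88 ± 0.46 for MC against YC (adjusted p = 1). Sox10, which drives Mitf in melanocytes and is also made by glia, was at -0.30 ± 0.20 for CR against MC (adjusted p = 0.42), with the groups overlapping. Pax3, which acts upstream of Mitf, was at -1.48 ± 0.50 for CR against YC (adjusted p = 0.457).

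Of 10 further melanosome proteins, 6 were past the filter, 2 higher and 4 lower in CR than in MC (median -0.67, and -0.50 with array class as a term). Gpnmb, a relative of PMEL that is also abundant in macrophages and osteoclasts, was at -0.86 ± 0.25 (adjusted p = 0.174). Slc7a11, which encodes a cystine transporter needed for yellow pigment, was at -1.61 ± 0.75 (adjusted p = 0.28). For MC against YC 4 of the 6 were higher (median 0.39), with Pmel, the fibril protein, at 1.01 ± 0.66 (adjusted p = 1). Pmel was at -0.71 ± 0.66 for CR against MC (limma adjusted p = 0.559), with the groups overlapping after normalization. With array class as a term that change was -2.45 ± 1.02.

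Genes of melanosome transport and of organelle assembly were read for CR against MC as well. Of 7 transport genes 6 were past the filter, and 5 of them were higher (median 0.27, and 0.33 with array class as a term), among them Myo5a, the motor that carries melanosomes, at 0.61 ± 0.28 (adjusted p = 0.272). Rab38, a small GTPase that brings Tyr and Tyrp1 to melanosomes, was the exception at -1.39 ± 0.38 (adjusted p = 0.162), and it was at -0.05 with array class as a term. Of 19 genes of organelle assembly 16 were past the filter and 10 were higher (median 0.23), against 6 of 16 with array class as a term (median -0.26). Dtnbp1 and Snapin, subunits of the BLOC-1 complex, were at 0.95 ± 0.29 (adjusted p = 0.184) and 0.71 ± 0.30 (adjusted p = 0.243).

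Other markers of the stria were set beside the members. All 6 listed intermediate cell markers were past the filter, 5 of them higher in CR than in MC (median 0.42, or 0.19 once class was a term), and 0 passed the threshold. Kcnj10 had signals of 2183, 2122 and 2078 in CR cochleae, 837, 707 and 808 in MC cochleae, and 1835, 906 and 976 in YC cochleae. The low-class YC array was nearer to CR than to the other YC arrays, and the log2 change for CR against MC of 1.76 ± 0.42 (adjusted p = 0.146) was 0.36 with array class as a term. Nrp2, a semaphorin coreceptor, was at -0.98 ± 0.33 (adjusted p = 0.193), and at 0.03 with that term. Summed over the list, the signal was 28982 to 29633 in CR, 20660 to 23129 in MC and 19637 to 27308 in YC.

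The stria holds other cell layers, marginal and basal. Of 9 marginal cell markers 5 were past the filter and 3 were higher in CR than in MC (median 0.49, and 0.20 with array class as a term), with Slc12a2, a potassium and chloride cotransporter, at 0.49 ± 0.20 (adjusted p = 0.241) and summed signals of 54045 to 60562 in CR, 32993 to 37834 in MC and 33268 to 51888 in YC. Of 4 basal cell markers 3 were past the filter and all 3 were higher (median 0.47), against 1 of 3 with array class as a term (median -0.11), with sums of 18902 to 21142 in CR, 11118 to 11349 in MC and 7948 to 17451 in YC. Cldn11, the tight junction protein of basal cells, was at 1.89 ± 0.47 (adjusted p = 0.146), and at 0.10 with that term. Tjp1, another junction protein, was at 0.47 ± 0.25 (adjusted p = 0.336), and the marginal cell channel gene Kcnq1 was higher in CR with an adjusted p of 0.302. No marginal or basal marker passed the threshold. Astrocyte and cerebellar markers were also higher in CR than in MC (medians 1.02 and 1.55). Which cells gave the signals of the intermediate, marginal and basal lists was not tested.

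Some general cochlear markers were also high in the CR arrays, in which Dct was high, and skeletal muscle markers were low there. Of 8 cochlear markers 5 were past the filter, 4 of them higher in CR than in MC (median 0.83, and 0.33 with array class as a term, 0 past the threshold), and the summed signal of the list was 93927 to 125966 in CR, 47921 to 55126 in MC and 39611 to 85539 in YC. Coch, a matrix protein of the spiral ligament, had signals of 41188, 57568 and 62293 in CR cochleae, 25022, 24277 and 19290 in MC cochleae, and 37216, 15823 and 16989 in YC cochleae. It was high in the low-class YC array as well, with a log2 change for CR against MC of 0.98 ± 0.26 (adjusted p = 0.156), and of 0.45 with array class as a term. Otos, otospiralin of the cochlear fibrocytes, was at 1.04 ± 0.25 (adjusted p = 0.146), and at 0.33 with that term. Coch and Otos made up most of each summed signal, so the sums say little about the other listed markers. Otog, a protein of the acellular membranes, was at 0.13 and Otof, of hair cell synapses, at -0.54, with the groups overlapping in both.

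All 10 listed muscle genes fell in CR against MC and passed the threshold (median -2.16), among them Myh2, a fast myosin, at -4.31 ± 0.43 (limma adjusted p = 0.0233). Their summed signal was 211110 to 326530 in CR, 779629 to 1174120 in MC and 529421 to 1139270 in YC. With array class as a term their median was -1.48 and 0 of all probe sets passed in limma, so these calls ended there, with 934 probe sets at an unadjusted p under 0.05. In limma 0 of all probe sets passed for CR against MC without CR array 2 or 3 or MC array 1 or 3, with 3052, 3052, 4088 and 3573 at an unadjusted p under 0.05, and without CR array 1 only 2 passed, 1 of them lower in CR. At most 1 muscle call was thus left without any 1 of these 5 arrays, and 0 with median centring, without the variance trend or with the replicate block. Other settings called more probe sets lower in CR than the 24 of the main fit, with 37 without MC array 2. Without YC array 1, 2 or 3 there were 170, 535 and 32. These counts are of all probe sets, not of the muscle genes alone. The part of tissue makeup in the Dct difference was not tested.

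Markers of other cells that make Kit or Mitf were also read, and for CR against MC 0 of them passed the threshold. Of 7 mast cell markers 3 were past the filter, 2 of them higher in CR than in MC (median 0.83, and below 0 with array class as a term), with summed signals of 3674 to 4345 in CR, 4241 to 6215 in MC and 3721 to 6213 in YC. Of 6 blood progenitor markers 4 were past the filter, 2 of them higher (median -0.09, and near 0 with that term), with sums of 7092 to 7529 in CR, 8614 to 11830 in MC and 7808 to 10189 in YC. Of 8 osteoclast markers 6 were past the filter, 2 of them higher (median -0.64, and -0.22 with that term), with sums of 13852 to 14917 in CR, 13373 to 18934 in MC and 15093 to 20622 in YC. The lowest deposited value of any probe set was 0.5, so the absence of signals of 0 says nothing about detection of these markers. The genes with the smallest p were Hdc (higher in CR, adjusted p = 0.336) and Cpa3 (0.83 ± 0.75) for mast cells, Flt3 (1.16 ± 0.57) and Gata2 (-1.02 ± 0.38) for progenitors, and Dcstamp (-1.04 ± 0.53) and Atp6v0d2 (lower in CR, adjusted p = 0.27) for osteoclasts.

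Glia also make Ednrb and Sox10, and cerebellar interneurons make Kit, so markers of brain tissue were read too. Of 6 astrocyte markers 5 were past the filter and all 5 were higher in CR than in MC (median 1.02, and 0.32 with array class as a term), with sums of 88730 to 103769 in CR, 34715 to 45185 in MC and 27147 to 71679 in YC. Of 9 cerebellar neuron markers 8 were higher (median 1.55, and 0.93 with that term), although the sums overlapped, at 78758 to 147836 in CR, 87040 to 147073 in MC and 53504 to 153760 in YC. Aldoc, an astrocyte enzyme, was at 1.73 ± 0.28 (adjusted p = 0.0616), and the glutamate transporter gene Slc1a2 at 4.37 ± 1.12 (adjusted p = 0.15). S100b gave the largest part of each astrocyte sum, and was at 0.69 ± 0.27 (adjusted p = 0.224), or 0.04 once class was a term. S100b and Aldoc together made up most of each astrocyte sum, so those sums say little about the other listed astrocyte markers. Which cells gave the S100b signal was not tested. Car8, abundant in Purkinje cells, was at 2.61 ± 0.46 (adjusted p = 0.0804). Car8 signals were 9510, 4224 and 3081 in CR cochleae and 831, 1000 and 843 in MC cochleae. CR array 1 was the highest of the CR arrays for every listed cerebellar marker. Pvalb, a calcium buffer of Purkinje cells and interneurons that fast muscle also makes, was the only listed cerebellar marker lower in CR than in MC, at -1.49 ± 0.30 (adjusted p = 0.101). Its signals were 27482 to 43488 in CR, 64292 to 127205 in MC and 38631 to 130434 in YC. It made up most of each MC and YC sum of the cerebellar list, so the overlap of those sums does not describe the other 8 genes.

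Schwann cells and endothelium are further sources of Ednrb or Sox10 RNA. Of 8 Schwann cell markers 3 were past the filter, 1 of them higher in CR than in MC (median -0.18), against 2 of 3 with array class as a term (median 0.26), with sums of 130294 to 155619 in CR, 111725 to 149942 in MC and 94105 to 142088 in YC. Of 7 endothelial markers 2 were higher (median -0.19, and -0.52 with that term), with sums of 9961 to 10654 in CR, 12579 to 14688 in MC and 10278 to 11706 in YC. Erbb3 was at -0.45 ± 0.22 and Mbp at 0.21 ± 0.17 among the Schwann cell markers, and Cdh5 was at -0.62 ± 0.28 and Pecam1 at 1.61 ± 0.89 among the endothelial ones. In these 4 lists of glia, neurons and vessels no gene passed the threshold, and their part in the Kit, Mitf and Ednrb values was not tested.

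**Figure D4:**
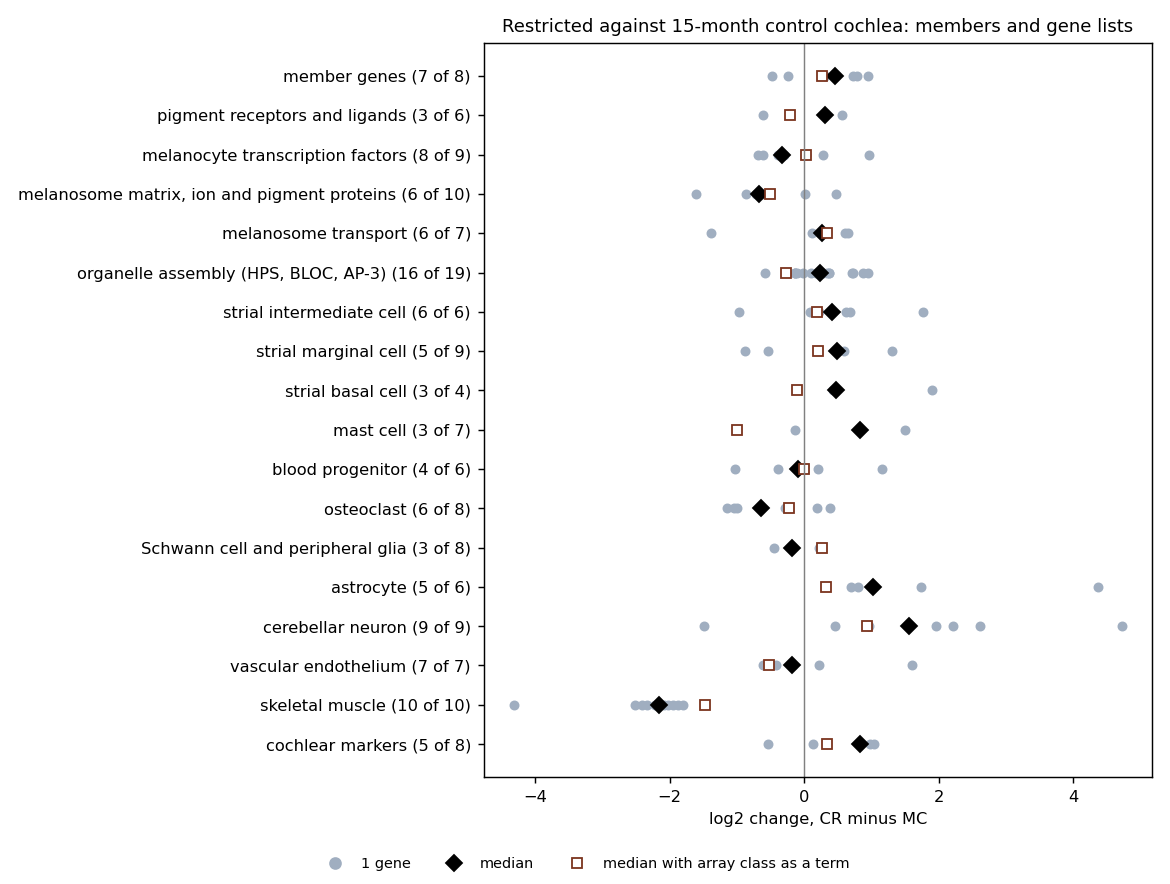
Log2 change for CR minus MC of each gene (grey), the median of each list (black diamonds) and the median with array class as a term (open squares), with the number of genes past the filter of those listed in brackets. The member genes straddle 0, the muscle genes lie to the left (median -2.16), and the cochlear, astrocyte and cerebellar medians lie to the right.

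Likeness of pattern was measured as the root mean square difference of centred log2 values over the 9 arrays, among 13695 other genes, so that a small value is a close match. The genes closest to the mean profile of Tyr and Dct were Mbp (0.18), Mccc2 (0.19), Yaf2 (0.20), Meg3 (0.20) and Syt11 (0.20). The median gene was at 0.65. A profile without any change over the arrays would lie at 0.38 from that mean and at 0.79 from Mitf and Mlana. For Kit, Slc45a2 and Ednrb it would lie at 0.61, 0.33 and 0.41. Closest to Mitf were Poldip2 (0.16), Higd1a (0.17) and Thrap3 (0.17), and closest to Kit were Spin1 (0.18), Hs3st1 (0.18) and Snx14 (0.20). Mlana was nearest to Slc37a3 (0.27), Cpsf7 (0.27) and Tlx2 (0.28), Slc45a2 to D10Wsu102e (0.10), Tbc1d10b (0.11) and Bcl2l13 (0.11), and Ednrb to Cadm3 (0.16), Jam3 (0.16) and Ints13 (0.17). Likeness took, for each gene, the probe set nearest to the profile, which need not be its brightest. None of these genes is in the pathway lists. Mbp is in the Schwann cell list, where it was read by another probe set.

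For Dct alone, a choice made after its values were seen, the nearest were Enah (0.19), Coch (0.19) and Kcna1 (0.19), of which Coch is a listed cochlear marker. Between members, Kit and Mlana were the closest pair (0.35), and Mitf and Slc45a2 were the farthest apart (1.09). Dct was nearer to Kit (0.46) than to Tyr (0.66). A profile without any change would lie at 0.48 from Dct, so neither was a close match.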

How the data were processed

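Per the labels' protocols, RNA of 9 cochlear pools was hybridised to 1-colour arrays after TRIzol isolation and biotin labelling of amplified cRNA. GCOS 1.3 is named in the submitters' processing notes, and how signals were computed and scaled is not given here. The authors deposited linear intensity values for 45037 probe sets. Array medians differed 2.1-fold, so log2(signal + 16) values were quantile normalized.

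Of these, 27022 had a mean log2 signal past the 40th percentile and were fitted in limma 3.58.1 under R 4.3.3 (lmFit on group means of all 9 arrays, eBayes with a variance trend), with Benjamini-Hochberg adjustment over all of them. The number of arrays limits the precision. Fold changes on this scale understate those of dim probe sets. The fit was tested on simulated data with independent noise and no array classes, so that test does not bear on the effect of class.

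Each gene was read by its brightest probe set (for likeness, by the nearest 1), and other probe sets of the members were described too. All members were named, and in each list up to 2 genes with the smallest p, or those past the threshold. Edn3, Otog and Otof were named after their values were seen. The members and lists were chosen with earlier results of these data known. Same-numbered arrays of different groups had correlations of deviations from -0.29 to 0.27 and were not treated as pairs. Alternatives were the pseudocount, filter, normalization, variance trend, groups in the fit, replicate block, array class, mean of probe sets, and each array left out.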

Additional observations from a re-analysis of the deposited data

How the results depend on the processing

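Of 425 values of single members under 18 to 21 alternatives each, 402 kept their direction, 23 took the opposite sign, and 0 gained or lost a call. The tally covers the 7 genes past the filter, by their brightest probe sets or their mean. Changing the filter, the variance trend, the replicate block or the groups fitted, or leaving out an uncompared array, cannot alter a log2 change. Many of the 402 directions were thus fixed in advance. The fits within 1 class repeated the log2 changes of the fit with array class. The count of member probe sets past the threshold stayed at 0 in every comparison and setting, the replicate block included, except 1 for CR against MC, the second Tyr probe set, when only CR and MC arrays were fitted. That fit called 1846 of all probe sets, against 25 with all 9 arrays and 0 with the replicate block or with array class as a term. With array class as a term, the CR against MC change was 0.74 for Tyr, -0.79 for Mitf, -0.24 for Kit, -0.17 for Mlana and 0.36 for Slc45a2, and the Ednrb change for CR against YC was -0.0069, the same within the low class. With arrays centred on their median, the MC against YC change was -0.025 for Dct and -0.14 for Kit, and the CR against MC change of Slc45a2 was 0.14. In the table as deposited the Tyr change for CR against YC was -0.11. With the mean of all probe sets, Ednrb had 0.0053 for MC against YC, -0.45 for CR against MC and -0.45 for CR against YC. Leaving out 1 array gave a range of -0.19 to 0.55 for Tyr and -0.29 to 0.33 for Ednrb (CR against YC), and -0.20 to 0.52 for Kit, -0.16 to 0.83 for Mlana and -0.60 to 0.016 for Ednrb (MC against YC). The cause of these reversals was not tested. The replicate block (Dct, CR against MC, 0.72, limma adjusted p = 0.245) changed no call. CR and MC share no array class, so class and restriction can be separated only through the YC arrays, and no comparison of CR with MC within a class was possible. In the fit without the filter or array class, dim probe sets, Tyrp1 among them, had SEs of 0.76 to 1.07. With array class as a term the SEs were larger, so that only large differences could be seen in either fit.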
